A study of Caenorhabditis elegans with 6 samples.

Results

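To ask how the transcriptome of *Caenorhabditis elegans* larvae of the first stage (L1) differs when the repair factor XPC-1 is mutated, 2 *xpc-1* libraries were compared with 2 wild-type libraries, out of 6 RNA-seq libraries in the series. The members were chosen by their labelled strain alone. The *xpc-1* larvae were of the strain TG2226, which carries the *xpc-1*(tm3886) allele, and the wild-type larvae were of the N2 strain. Both strains were untreated, were grown on NGM plates with *E. coli* as food, and were collected as whole animals. The 2 *csb-1* libraries of the series were left out of the fit. Each genotype was represented by a single strain, so any other difference between TG2226 and N2 cannot be told apart from the *xpc-1* allele. The labels do not say whether the 2 libraries of a strain came from separate cultures, and p-values then measure only the spread between these libraries, which may be technical.

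Nucleotide excision repair removes bulky DNA lesions such as those made by ultraviolet light. XPC recognises distorted DNA anywhere in the genome and starts global repair, whereas CSB acts where RNA polymerase has stalled and starts transcription-coupled repair. Both routes then use XPA, the helicases of TFIIH and the nucleases XPF-ERCC1 and XPG, after which replication proteins fill and seal the gap. The L1 larva is a small animal whose somatic tissues are largely differentiated. It holds few germline precursors, and it resumes cell division, growth and synthesis of a new cuticle once it feeds.

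Each library held between 41643033 and 48299740 counts on genes. Of 46904 genes in the files, 17924 had at least 10 counts in at least 2 of the 4 libraries and entered the test, the quasi-likelihood test of edgeR. At a Benjamini-Hochberg adjusted p under 0.05, 6653 genes (37.1%) were called, 3591 of them higher in *xpc-1* (20.0% of genes tested) and 3062 lower (17.1%). At all 6653, the *xpc-1* pair of libraries did not overlap the wild-type pair. A call from 2 against 2 libraries largely requires this, so it adds no support, and the share over all genes tested was not counted. Most differences were modest: the median log2 fold change was 0.69 among the genes called higher and -0.72 among those called lower, and 1100 and 732 genes differed by 2-fold or more. The median over all genes tested was -0.017. The spread between libraries of a strain was small, with a biological coefficient of variation of 0.145. When the 2 *csb-1* libraries entered the same fit, this coefficient was 0.617. In that fit no gene was called by edgeR and 267 had an unadjusted p under 0.05. Every call given here therefore rests on the fit of 4 libraries. The 2 *csb-1* libraries differed from each other at genes of several groups described below. They had 16728 and 2673 counts at *mcm-7*, 1622 and 0 at *nos-2*, 37794 and 238125 at *rps-8* and 4840 and 24999 at *egl-3*. At *rad-23* they were closer, with 6934 and 5416. These genes were chosen after their values were seen, and the source of the difference was not tested. Without wild-type replicate 1 the number of calls was 3058, and without wild-type replicate 2 it was 3156. Ribosomal RNA genes took 1.86% and 0.145% of the counts in the *xpc-1* libraries and 0.493% and 0.313% in the wild-type libraries, and the number called without these genes was 6677.

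The *xpc-1* gene (WBGene00022296, chromosome IV, 1993089 to 2008993, plus strand, WBcel235) was read first. It had 19.3 and 19.2 CPM (reads on the gene relative to the library total, as scaled by edgeR's TMM factors) in *xpc-1* larvae, against 46.1 and 42.4 CPM in wild-type larvae. The strains did not overlap, and the log2 fold change was -1.20 ± 0.11 (SE, adjusted p = 0.000105). Its reads did not vanish in the mutant, and gene-level counts cannot show which part of it the tm3886 allele removes. The neighbouring gene *cpsf-1*, named here because it lies next to *xpc-1* and outside the rule for named genes, had 95.0 and 90.9 CPM in *xpc-1* larvae and 79.8 and 77.1 CPM in wild-type larvae, and it was not called (adjusted p = 0.0535).

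Apart from *xpc-1*, no gene of a list of 26 excision repair genes was called lower. Of the 26, 7 were called higher, a share of 26.9% against 20.0% over all genes tested, and the list's median log2 fold change was 0.18. Without wild-type replicate 1, 4 were called higher. The genes called higher include 5 that also serve replication, of which *pcn-1*, *lig-1* and *rfc-1* act in gap filling and sealing. *pcn-1*, the sliding clamp PCNA, had 259 and 299 CPM in *xpc-1* larvae, against 113 and 139 CPM in wild-type larvae (log2 fold change 1.15 ± 0.12, adjusted p = 0.000205). *lig-1*, a DNA ligase, had 74.7 and 64.4 CPM in *xpc-1* larvae, against 36.9 and 32.6 CPM in wild-type larvae (log2 fold change 1.00). The single-strand binding subunits *rpa-1* and *rpa-2* and the clamp loader subunit *rfc-1* had log2 fold changes of 0.66, 0.52 and 0.59. The authors also name RPA among the factors that sense damage before incision.

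The remaining 2 of the genes called higher act in damage recognition. *rad-23*, whose yeast and mammalian relatives bind XPC, had 175 and 189 CPM in *xpc-1* larvae, against 114 and 147 CPM in wild-type larvae (log2 fold change 0.48, adjusted p = 0.0142). *csb-1* itself, the initiator of transcription-coupled repair, had 30.5 and 30.7 CPM in *xpc-1* larvae, against 21.7 and 24.2 CPM in wild-type larvae (log2 fold change 0.41 ± 0.11, adjusted p = 0.0201). The strains stayed apart for both, yet *csb-1* was not called with any 1 of the 4 libraries left out, and *rad-23* was not called without *xpc-1* replicate 2 or without wild-type replicate 1. Of the shared factors that act before or at incision, the RPA subunits above were called, but *xpa-1*, *xpf-1*, *ercc-1* and *xpg-1* were not. *xpa-1* had 21.5 and 20.4 CPM in *xpc-1* larvae and 24.3 and 18.6 CPM in wild-type larvae, and the 2 strains overlapped. The log2 fold changes were -0.03 for *xpa-1*, 0.11 for *xpf-1*, 0.13 for *ercc-1*, 0.12 for *xpg-1* and -0.0035 for *csa-1*, which works with CSB. Those of *ddb-1* and *cul-4*, parts of a ubiquitin ligase of global repair in mammals, were -0.12 and 0.21. The 18 members that were not called lay between -0.16 and 0.38.

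Damage checkpoint and tolerance genes had more calls higher than lower. Of 25 tested genes of the damage checkpoint and p53 list, 11 (44%, against 20.0% over all genes) were called higher and none lower (median log2 fold change 0.24). *hpr-17*, a loader of the checkpoint clamp, had 12.4 and 16.4 CPM in *xpc-1* larvae, against 5.71 and 5.98 CPM in wild-type larvae (log2 fold change 1.30). The caspase *ced-3* and *brd-1*, the partner of the BRCA1 relative, had log2 fold changes of 0.95 and 0.87. Without wild-type replicate 1, 6 of the 11 were called. Of 10 translesion synthesis and tolerance genes, 4 were called higher (40.0%, against 20.0%) and 1 lower, and with any 1 library left out between 1 and 3 were called higher and none lower. *polh-1*, DNA polymerase eta, had 21.9 and 19.7 CPM in *xpc-1* larvae, against 12.7 and 11.2 CPM in wild-type larvae (log2 fold change 0.80). *polk-1* and the interstrand crosslink nuclease *fan-1* had log2 fold changes of 0.66 and 0.51, and both calls were lost without *xpc-1* replicate 1 or either wild-type library. The member called lower was *rev-1*, at -0.38 (adjusted p = 0.0438), and it was not called with any 1 library left out.

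The DNA replication list rose as a whole. All 36 members tested were called higher, against 20.0% of all genes, with log2 fold changes between 0.45 and 1.43 and a median of 0.77. The summed level of the list was 3249 and 3425 CPM in the *xpc-1* libraries, against 1791 and 1902 CPM in the wild-type libraries. *mcm-7*, a subunit of the replicative helicase, had 314 and 352 CPM in *xpc-1* larvae, against 113 and 135 CPM in wild-type larvae (log2 fold change 1.43 ± 0.11, adjusted p = 5.93e-05). *cdt-1*, which licenses origins, had 79.4 and 86.7 CPM in *xpc-1* larvae, against 27.9 and 38.9 CPM in wild-type larvae. *psf-1*, a subunit of the GINS complex, had 12.4 and 13.2 CPM in *xpc-1* larvae and 5.94 and 4.69 CPM in wild-type larvae. Between 28 and 35 of the 36 were called when 1 of the 4 libraries was left out, and all 36 were called with upper-quartile factors.

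Cyclins and cyclin-dependent kinases moved in the same direction, with 22 of 23 called higher, none lower and a median log2 fold change of 0.76. The B-type cyclin *cyb-3*, which drives mitosis, had 599 and 741 CPM in *xpc-1* larvae, against 163 and 197 CPM in wild-type larvae (log2 fold change 1.90 ± 0.13, adjusted p = 4.17e-05). The close paralogs *cyb-2.2* and *cyb-2.1* had log2 fold changes of 2.05 and 1.73. With wild-type replicate 1 left out, 15 of the 23 were called. *cki-1*, an inhibitor of cyclin-dependent kinases that holds arrested larval cells in check, was also called higher, with 96.5 and 109 CPM in *xpc-1* larvae, against 63 and 77.6 CPM in wild-type larvae. Histone genes could be followed only in part, since 39 of 72 were tested and many are near-identical copies whose reads may be lost or split. The libraries were also poly(A)-enriched, and the part of this in the histone counts was not tested. Of the 39, 6 were called higher and none lower (15.4%, against 20.0% over all genes), and 3 without *xpc-1* replicate 2 and 2 without wild-type replicate 1. *his-24*, a linker histone, had 870 and 856 CPM in *xpc-1* larvae, against 448 and 447 CPM in wild-type larvae. *his-74*, an H3 histone gene, had 22.2 and 29 CPM in *xpc-1* larvae, against 7.02 and 10.5 CPM in wild-type larvae.

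**Figure D1:**
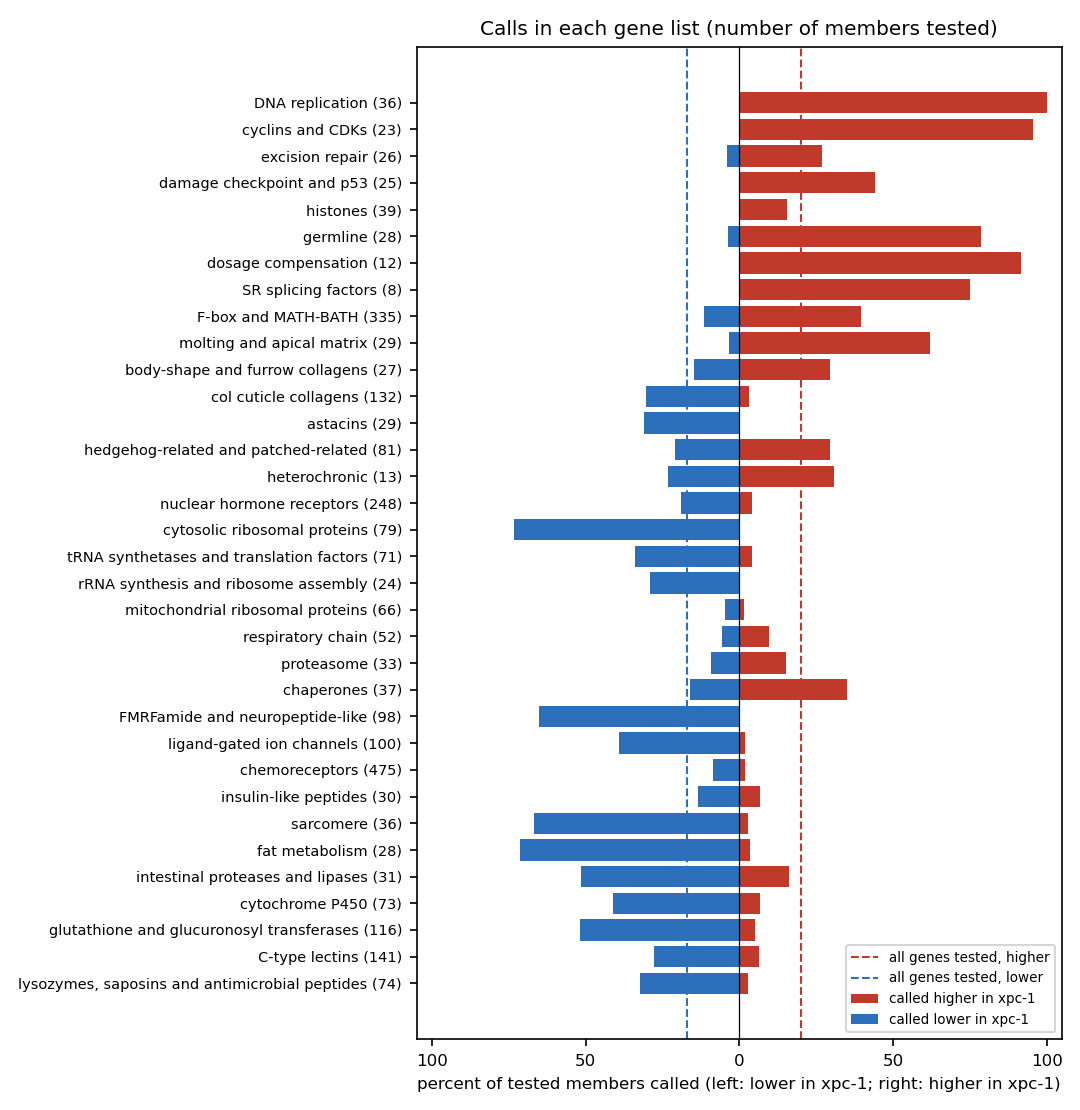
Share of tested members of 34 gene lists called higher (red, to the right) or lower (blue, to the left) in *xpc-1*, in percent, with the number tested in brackets. Dashed lines mark the shares over all genes tested, 20.0% higher and 17.1% lower; DNA replication, cyclins, dosage compensation and germline extend furthest to the right, and ribosomal proteins, fat metabolism, sarcomere and neuropeptides furthest to the left.

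The germline list rose with them. Of 28 genes, 22 were called higher and 1 lower, with a median log2 fold change of 0.96. *nos-2*, a Nanos relative of the primordial germ cells, had 36.3 and 40.5 CPM in *xpc-1* larvae, against 9.55 and 8.64 CPM in wild-type larvae (log2 fold change 2.08 ± 0.13, adjusted p = 2.56e-05). *gld-1*, an RNA-binding regulator of germ cell fate, had 48.4 and 47.7 CPM in *xpc-1* larvae, against 12.2 and 14.6 CPM in wild-type larvae. The Argonaute *wago-1* had 60.8 and 65.9 CPM in *xpc-1* larvae, against 19.4 and 17.5 CPM in wild-type larvae. The exception was *fbf-2*, a PUF protein of germline stem cells, with 3.62 and 3.95 CPM in *xpc-1* larvae, against 6.45 and 7.60 CPM in wild-type larvae (log2 fold change -0.89, adjusted p = 0.00912). Between 15 and 19 members were called higher with 1 library left out. In whole larvae, more cells of a type and more RNA per cell cannot be told apart, nor can fewer cells and less RNA per cell.

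Markers of cell types and stages were read beside these groups. The summed level of 9 germline markers was 268 and 269 CPM in *xpc-1* larvae, against 143 and 136 CPM in wild-type larvae, and 8 of the 9 were called higher. That of 6 embryo markers was 103 and 112 CPM in *xpc-1* larvae, against 30.3 and 29.2 CPM in wild-type larvae, with 4 of 5 tested members called higher and none of the 6 at 0 in all 4 libraries. Of 10 markers of adult oocytes and yolk, 4 were called higher and none lower, and 2 were called without wild-type replicate 2. *mex-5*, a polarity factor of the early embryo, had 81.3 and 88.2 CPM in *xpc-1* larvae, against 24.5 and 23.2 CPM in wild-type larvae. *pie-1*, which represses transcription in embryonic germline blastomeres, had 12 and 15.8 CPM in *xpc-1* larvae, against 3.77 and 3.80 CPM in wild-type larvae. *puf-5*, an oocyte RNA-binding protein, had 37.4 and 33.1 CPM in *xpc-1* larvae, against 7.47 and 12.2 CPM in wild-type larvae, and the yolk receptor *rme-2* had a log2 fold change of 1.07. None of the 6 vitellogenin genes, which adult intestines express, was called. The part of germline and embryo transcripts in the replication, cyclin and repair results was not tested.

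**Figure D2:**
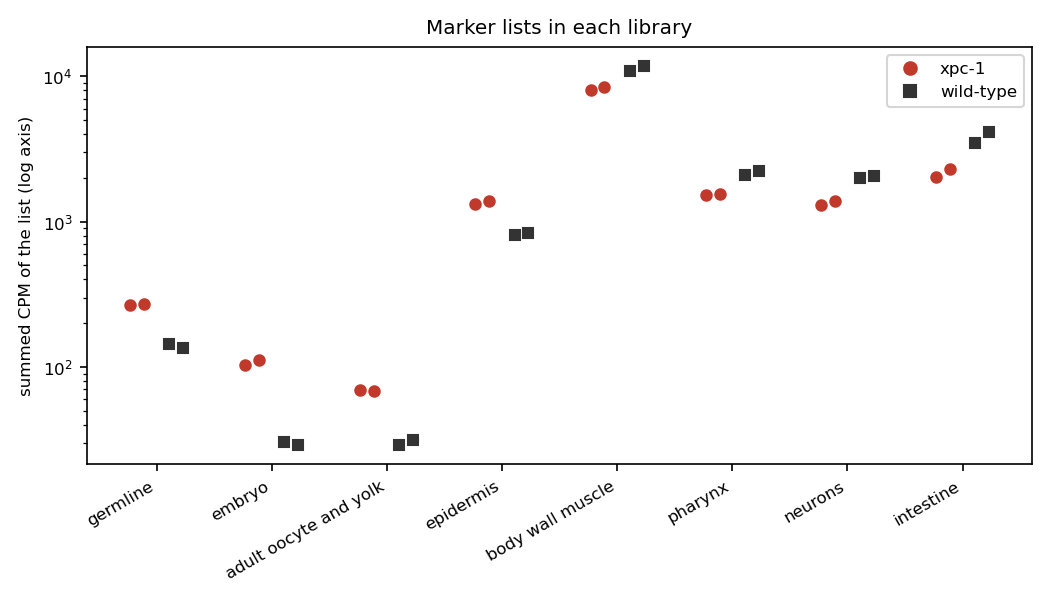
Summed CPM (vertical log axis) of 8 marker lists in each library, with *xpc-1* (red circles) left of wild-type (black squares). The *xpc-1* libraries lie above the wild-type libraries for germline, embryo, adult oocyte and yolk, and epidermis, and below them for body wall muscle, pharynx, neurons and intestine.

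Genes that set X-chromosome dosage followed the same direction, with 11 of 12 called higher, none lower and a median log2 fold change of 0.48. *sdc-1* and *sdc-2*, which recruit the dosage compensation complex to the X chromosome of hermaphrodites, had log2 fold changes of 0.85 and 0.60, and the condensin subunit *capg-1* had 0.56. With wild-type replicate 1 left out 7 of the 12 were called, and with wild-type replicate 2 left out 5. *sex-1*, a nuclear receptor that counts X chromosomes in the early embryo, had 123 and 135 CPM in *xpc-1* larvae, against 54 and 57.9 CPM in wild-type larvae. On the X chromosome itself, 520 of 2613 genes tested (19.9%) were called higher and 538 (20.6%) lower, against 20.1% and 16.5% of the autosomal genes, and its median log2 fold change was -0.075.

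Transcripts of the translation machinery lay lower. Of 79 cytosolic ribosomal protein genes tested, 58 (73.4%) were called lower, against 17.1% of all genes, and none higher. Their median log2 fold change was -0.45, and the members lay between -0.60 and 0.67, with 3 above 0 and 21 not called. The list summed to 78549 and 86277 CPM in the *xpc-1* libraries, against 109621 and 116727 CPM in the wild-type libraries. *rps-8* had 1480 and 1610 CPM in *xpc-1* larvae, against 2150 and 2440 CPM in wild-type larvae (log2 fold change -0.57 ± 0.11, adjusted p = 0.00368). *rps-9* and *rps-14* had log2 fold changes of -0.60 and -0.57. With changes of this size the number called depended on single libraries: 6 of the 79 were called lower without *xpc-1* replicate 1, 37 without *xpc-1* replicate 2, 21 without wild-type replicate 1 and 13 without wild-type replicate 2. The median stayed between -0.54 and -0.38 in all of the alternative fits of the 4 libraries.

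Of 71 tRNA synthetases and translation factors, 24 were called lower and 3 higher (median log2 fold change -0.18), and between 7 and 11 were called lower with any 1 library left out. The asparaginyl-tRNA synthetase *nars-1* had a log2 fold change of -0.63. The initiation factor subunit *eif-3.C* and the elongation factor *eef-2* had log2 fold changes of -0.53 and -0.39. An exception in the other direction was *iff-1*, a germline form of eIF5A, with 57.2 and 52.1 CPM in *xpc-1* larvae, against 22 and 20.2 CPM in wild-type larvae. Ribosome assembly had 7 of 24 members called lower (29.2%, against 17.1% over all genes) and none higher. With upper-quartile factors 12 were called lower, and between 1 and 3 were called lower with any 1 library left out. Among these the nucleolar methyltransferase *fib-1* had a log2 fold change of -0.37, and its call was lost with any 1 library left out. Of 66 mitochondrial ribosomal protein genes, 1 was called higher and 3 lower (4.55%), with a median log2 fold change of -0.092. With upper-quartile factors 1 was called higher and 9 lower, and with any 1 library left out at most 1 was called lower. The difference from the cytosolic list was not tested. *mrpl-40*, the one called higher, had 47.6 and 49.4 CPM in *xpc-1* larvae, against 31.6 and 32.6 CPM in wild-type larvae.

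The cuticle showed opposite directions in different gene groups. The large *col* family of cuticle collagens had 40 of 132 tested members called lower (30.3%) and 4 called higher, with a median log2 fold change of -0.39. *col-98* had 91.5 and 95.2 CPM in *xpc-1* larvae, against 223 and 216 CPM in wild-type larvae (log2 fold change -1.24 ± 0.09, adjusted p = 4.02e-05). *col-42* and *col-103* had log2 fold changes of -1.06 each. Among the members called higher, *col-121* had 182 and 176 CPM in *xpc-1* larvae, against 84.5 and 78.7 CPM in wild-type larvae, and *col-76* had a log2 fold change of 0.89. Without wild-type replicate 1, 21 members were called lower.

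Genes listed for body shape and circumferential furrows, not all of them collagens, were split. Of 27, 8 were called higher (29.6%) and 4 lower (14.8%), against 20.0% and 17.1% over all genes. The furrow collagens *dpy-2*, *dpy-3* and *dpy-7* had log2 fold changes of 1.01, 1.05 and 1.01. For *dpy-7*, the values were 204 and 221 CPM in *xpc-1* larvae, against 109 and 102 CPM in wild-type larvae. *mlt-7*, a peroxidase that crosslinks the cuticle and not a collagen, was called lower. It had 41.4 and 39.4 CPM in *xpc-1* larvae, against 68 and 66.4 CPM in wild-type larvae. 3 collagens and a collagen-processing enzyme were among the 5 genes with the largest gain in CPM. *sqt-3* had 3350 and 3240 CPM in *xpc-1* larvae, against 2070 and 1970 CPM in wild-type larvae. *dpy-17* and *dpy-14* had log2 fold changes of 0.80 and 0.83, and *pdi-2*, a protein disulfide isomerase that also serves as a subunit of the collagen prolyl hydroxylase, had 0.76. The other of the 5 was *nurf-1*, a chromatin remodelling subunit, at 0.47.

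Most genes of molting and the apical extracellular matrix rose: 18 of 29 (62.1%) were called higher, 1 lower and 10 not called, with a median log2 fold change of 0.60, and between 15 and 17 were called higher with 1 library left out. The 9 epidermal markers, *noah-1* and *dpy-7* among them, summed to 1315 and 1379 CPM in *xpc-1* larvae, against 806 and 835 CPM in wild-type larvae, with 4 of 8 tested called higher and 2 lower, and their part in this result was not tested. *noah-1*, a zona pellucida-domain protein of the embryonic and larval matrix, had 747 and 755 CPM in *xpc-1* larvae, against 366 and 367 CPM in wild-type larvae (log2 fold change 1.03 ± 0.09, adjusted p = 8.62e-05). The leucine-rich repeat proteins *egg-6* and *sym-1* had log2 fold changes of 1.15 and 1.04. The member called lower was *dpy-6*, a mucin-like protein, with 13.3 and 9.92 CPM in *xpc-1* larvae, against 25.3 and 27.3 CPM in wild-type larvae. The astacin metalloproteases, several of which act at the molt, went the other way, with 9 of 29 called lower and none higher, and 4 called lower with either wild-type library left out. *nas-31* had a log2 fold change of -0.81.

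Genes called in both directions occurred among regulators of larval timing. Of 14 transcription factors of the molting oscillator, 6 were called higher and 1 lower. *lin-42*, the PERIOD relative, had 126 and 128 CPM in *xpc-1* larvae, against 73.8 and 71.9 CPM in wild-type larvae (log2 fold change 0.80). *peb-1* and *nhr-91* had log2 fold changes of 0.84 and 0.66, and the epidermal GATA factor *elt-3* had -0.29, a call that was lost with any 1 library left out. Among 13 heterochronic genes, which set the succession of larval stages, 4 were called higher and 3 lower, shares of 30.8% and 23.1% in a small list, against 20.0% and 17.1% over all genes. *hbl-1*, a zinc finger factor of early stages, had 839 and 811 CPM in *xpc-1* larvae, against 439 and 450 CPM in wild-type larvae. *alg-2*, a microRNA Argonaute, had a log2 fold change of 1.00. *lin-41*, a TRIM protein that prevents adult fates, had 94.8 and 88.9 CPM in *xpc-1* larvae, against 185 and 176 CPM in wild-type larvae (log2 fold change -0.97 ± 0.09, adjusted p = 0.000102). *daf-12* and *lin-14* had log2 fold changes of -0.49 and -0.31. The call of *lin-14* was lost with any 1 library left out. Of 81 hedgehog-related and patched-related genes, many of them epidermal, 24 were called higher and 17 lower. Among them were *ptr-25* at 1.01, *wrt-10* at 0.94 and *ptr-13* at -1.36. Both shares lay above the 20.0% and 17.1% over all genes, where calls also went in both directions, and the difference was not tested. The counts were 14 and 11 without wild-type replicate 1, and 15 and 8 without wild-type replicate 2.

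**Figure D3:**
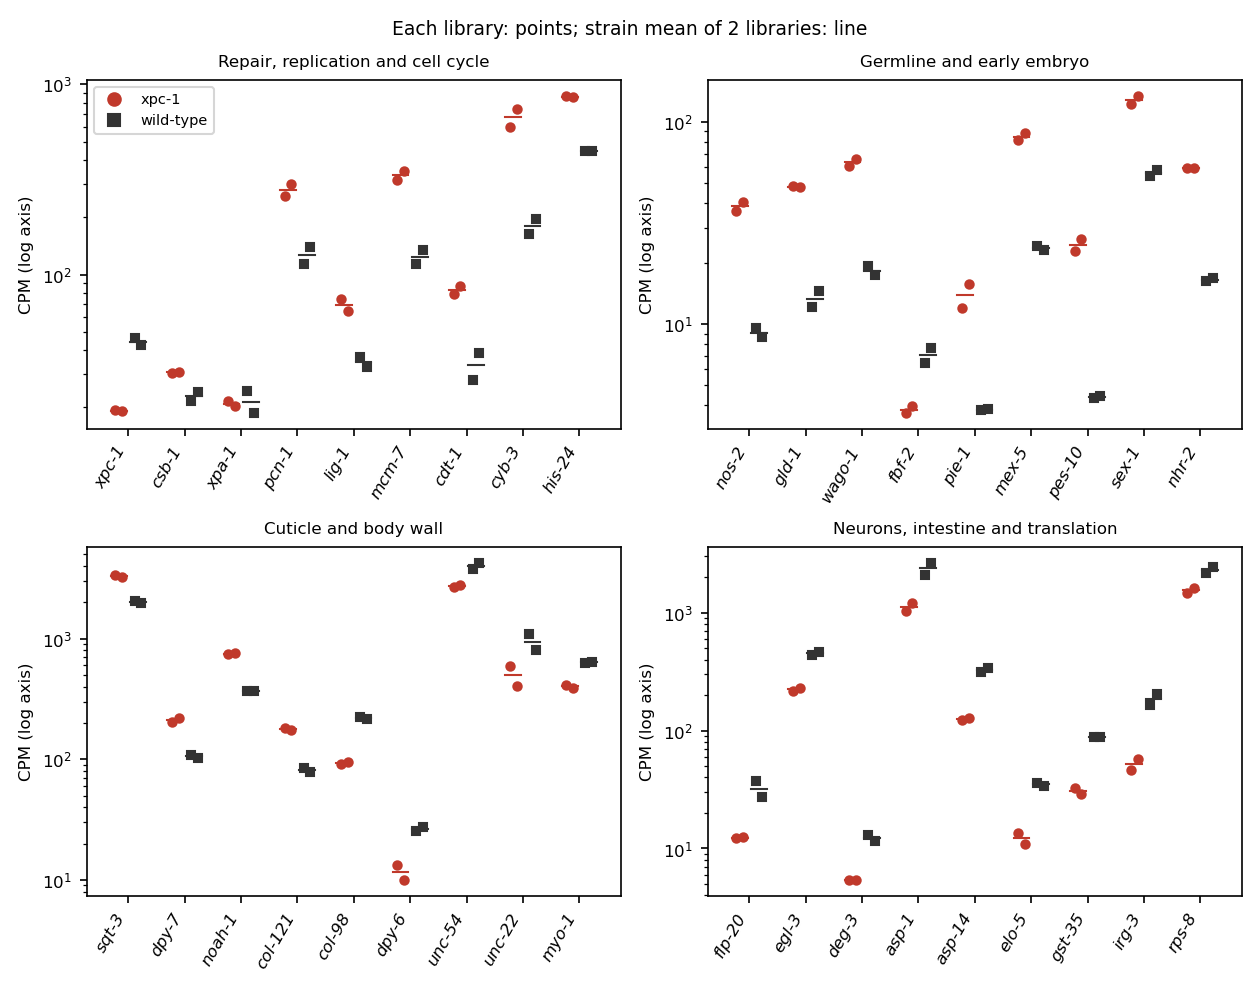
CPM in each library (vertical log axes) for 36 genes in 4 groups, with *xpc-1* (red circles) left of wild-type (black squares) and the strain mean as a short line. The strains do not overlap for any gene shown except *xpa-1*, and the 2 libraries of a strain lie close together. All genes shown but *xpa-1* were called, which largely requires that the strains do not overlap.

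Neuropeptide genes fell as a group. Of 98 neuropeptide genes tested (102 in the files), 64 (65.3%) were called lower, against 17.1% of all genes, and none higher. Their median log2 fold change was -0.76, and the list summed to 2008 and 1963 CPM in the *xpc-1* libraries, against 3457 and 3266 CPM in the wild-type libraries. *flp-20*, which encodes FMRFamide-like peptides of touch neurons, had 12.3 and 12.4 CPM in *xpc-1* larvae, against 37 and 27.2 CPM in wild-type larvae (log2 fold change -1.38 ± 0.16, adjusted p = 0.000305). *nlp-43* had 16.8 and 22.9 CPM in *xpc-1* larvae, against 53.7 and 47.1 CPM in wild-type larvae. The processing enzymes were lower too. The proprotein convertase *egl-3* had 216 and 230 CPM in *xpc-1* larvae, against 435 and 466 CPM in wild-type larvae, and the carboxypeptidase *egl-21* had 157 and 185 CPM in *xpc-1* larvae, against 336 and 408 CPM in wild-type larvae. The number called lower was 42 without wild-type replicate 1, 36 without wild-type replicate 2 and at least 54 with either *xpc-1* library left out.

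Ligand-gated ion channels had 39 of 100 called lower and 2 higher (median log2 fold change -0.44), with 19 called lower without wild-type replicate 1 and 16 without wild-type replicate 2. The nicotinic receptor subunits *deg-3* and *acr-23* both had log2 fold changes of -1.17, and *lgc-22*, one of the exceptions, had a log2 fold change of 0.69. Chemoreceptor genes were mostly silent or near it: 475 of 1308 were tested, of which 41 were called lower and 9 higher, shares of 8.63% and 1.89% that lay below those over all genes. With either wild-type library left out, 4 were called lower. Of 10 general neuronal markers, 7 were called lower and 1 higher, and 4 were called lower without wild-type replicate 1. *unc-13*, which primes synaptic vesicles, had 175 and 182 CPM in *xpc-1* larvae, against 283 in each wild-type library. The marker called higher was *unc-119*, with 45 and 56.7 CPM in *xpc-1* larvae, against 30.5 and 38.2 CPM in wild-type larvae.

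Muscle genes were lower by a smaller amount. Of 36 sarcomere genes, 24 (66.7%) were called lower and 1 higher, with a median log2 fold change of -0.39, and between 10 and 14 were called lower with 1 library left out. *unc-54*, the major myosin heavy chain of the body wall and the gene with the largest loss in CPM, had 2700 and 2800 CPM in *xpc-1* larvae, against 3770 and 4270 CPM in wild-type larvae (log2 fold change -0.55 ± 0.11, adjusted p = 0.00442), and it remained called only without wild-type replicate 1 among the fits with 1 library left out. *unc-22*, the giant protein twitchin, had 592 and 408 CPM in *xpc-1* larvae, against 1090 and 799 CPM in wild-type larvae. Paramyosin, *unc-15*, the calponin-like *unc-87* and troponin T, *tnt-2*, had log2 fold changes of -0.48, -0.78 and -0.81. The exception was the actin gene *act-2*, with 616 and 802 CPM in *xpc-1* larvae, against 423 and 534 CPM in wild-type larvae; actin genes are close copies and their counts may be shared. In the pharynx, the myosin *myo-1* and the troponin C *tnc-2* had log2 fold changes of -0.67 and -0.64, whereas the FoxA factor *pha-4*, which specifies the organ in the embryo, had 200 and 212 CPM in *xpc-1* larvae, against 141 and 165 CPM in wild-type larvae.

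Genes of intestinal digestion were mostly called lower. Of 31 intestinal proteases and lipases tested, 16 (51.6%) were called lower and 5 higher, with a median log2 fold change of -0.86. *asp-1*, an abundant aspartyl protease, had 1040 and 1210 CPM in *xpc-1* larvae, against 2100 and 2650 CPM in wild-type larvae (log2 fold change -1.08 ± 0.14, adjusted p = 0.000474). *asp-14* had 124 and 128 CPM in *xpc-1* larvae, against 314 and 342 CPM in wild-type larvae, and *asp-8* and the cathepsin B *cpr-1* had log2 fold changes of -1.58 and -1.41. The 9 intestinal markers tested had 5 called lower and 1 higher, and 3 were called lower without wild-type replicate 2. The brush border actin *act-5* and the peptide transporter *pept-1* had log2 fold changes of -0.62 and -0.53, and *cpr-6*, the one called higher, had 0.48.

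Fat metabolism had 20 of 28 genes (71.4%) called lower and 1 higher, with a median log2 fold change of -0.59. *elo-5*, an elongase for branched-chain fatty acids, had 13.6 and 10.9 CPM in *xpc-1* larvae, against 36 and 34 CPM in wild-type larvae (log2 fold change -1.52 ± 0.14, adjusted p = 0.000104). The elongase *elo-1* had 147 and 168 CPM in *xpc-1* larvae, against 298 and 338 CPM in wild-type larvae, and the desaturase *fat-2* had a log2 fold change of -0.95. The exception was *acdh-2*, an acyl-CoA dehydrogenase, at 0.37, a call that was lost with upper-quartile factors. *acs-2*, an acyl-CoA synthetase that fasting induces, had 22.3 and 18.7 CPM in *xpc-1* larvae, against 33.4 and 34.7 CPM in wild-type larvae. At least 14 of the 28 were called lower with any 1 library left out.

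Detoxification enzymes shared this direction. Of 116 glutathione and glucuronosyl transferases, 60 were called lower and 6 higher, with a median log2 fold change of -0.54. *gst-35* had 32.8 and 28.7 CPM in *xpc-1* larvae, against 88.6 and 87.6 CPM in wild-type larvae (log2 fold change -1.52 ± 0.10, adjusted p = 3.46e-05). *gsto-2* had a log2 fold change of -1.44, and *ugt-57*, in the other direction, had 70.2 and 74.9 CPM in *xpc-1* larvae, against 31.9 and 33.4 CPM in wild-type larvae. Of 73 cytochrome P450 genes, 30 were called lower and 5 higher, and *cyp-33C7* and *cyp-13A12* had log2 fold changes of -1.34 and -1.33. With wild-type replicate 1 left out, 32 transferases and 14 cytochrome P450 genes were called lower, and with wild-type replicate 2 left out, 37 and 19.

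Immune effector families fell in part. Of 141 C-type lectin genes tested, 39 (27.7%) were called lower and 9 higher, with 23 called lower without wild-type replicate 1 and 20 without wild-type replicate 2. *clec-52* had 45.4 and 49.2 CPM in *xpc-1* larvae, against 115 and 117 CPM in wild-type larvae. The lectins called higher included *clec-87*, with 185 and 213 CPM in *xpc-1* larvae, against 41.6 and 44.6 CPM in wild-type larvae, and *clec-91*, with a log2 fold change of 2.06. Because of these abundant members the summed level of the family was 2159 and 2339 CPM in *xpc-1* larvae and 1873 and 2069 CPM in wild-type larvae, although most of its calls were lower. Of 74 lysozymes, saposins and antimicrobial peptides, 24 were called lower and 2 higher, and without wild-type replicate 1, 9 were called lower. The saposin-like *spp-23* had 2.77 and 3.90 CPM in *xpc-1* larvae, against 12.9 and 12.8 CPM in wild-type larvae.

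Stress and housekeeping lists gave smaller or mixed shifts. Of 37 chaperones, 13 were called higher (35.1%) and 6 lower (16.2%), against 20.0% and 17.1% over all genes. With upper-quartile factors the counts were 12 and 12, and with any 1 library left out at most 3 were called lower. *sip-1*, an embryonic small heat shock protein, had 93.6 and 108 CPM in *xpc-1* larvae, against 22.4 and 26.5 CPM in wild-type larvae (log2 fold change 2.05 ± 0.12, adjusted p = 2.56e-05). The inducible *hsp-70* had 1010 and 968 CPM in *xpc-1* larvae, against 549 and 521 CPM in wild-type larvae, and the mitochondrial chaperonin *hsp-60* had a log2 fold change of -0.43, a call that was lost without *xpc-1* replicate 1 or either wild-type library. All 6 *hsp-16* genes had positive log2 fold changes, and 2 were called higher: *hsp-16.41* at 0.48 and *hsp-16.2* at 0.38, and neither was called without *xpc-1* replicate 1, wild-type replicate 1 or wild-type replicate 2. The hsp-16 genes are near-identical pairs, so their counts are uncertain. The proteasome had 5 of 33 called higher (15.2%) and 3 lower (9.09%), shares below those over all genes, and with upper-quartile factors 2 and 3. Without wild-type replicate 1, none was called. The respiratory chain had 5 of 52 called higher and 3 lower, shares below those over all genes. With upper-quartile factors the counts were 4 and 5, and with any 1 library left out at most 1 was called lower. Its largest change was that of *ucr-2.3*, a subunit of complex III, with 33.4 and 33.9 CPM in *xpc-1* larvae, against 8.87 and 11.9 CPM in wild-type larvae.

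Insulin-like peptides had 2 of 30 called higher (6.67%) and 4 lower (13.3%), both below the shares over all genes, and without wild-type replicate 1, 2 were called lower. *ins-34* had 37.5 and 40.5 CPM in *xpc-1* larvae, against 15.7 and 16.5 CPM in wild-type larvae, and *ins-17* had 10.5 and 11.7 CPM in *xpc-1* larvae, against 21.1 and 22.2 CPM in wild-type larvae. In the list of insulin signalling and starvation genes, 4 of 31 were called higher and 9 lower, with 1 and 5 without wild-type replicate 1 and 4 and 3 without wild-type replicate 2. For these 31 genes in the fit of 4 libraries, the share called higher lay below that over all genes, and the share called lower lay above it. Of 248 nuclear hormone receptor genes, 47 were called lower (19%, near the 17.1% of all genes) and 10 higher (4.03%). Between 11 and 27 were called lower with any 1 library left out. *nhr-2*, an early embryonic member, had 59.3 and 59.6 CPM in *xpc-1* larvae, against 16.4 and 16.9 CPM in wild-type larvae. *nhr-7* had a log2 fold change of -1.04.

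More F-box and MATH-BATH genes and SR splicing factors were called higher than lower. Of 335 F-box and MATH-BATH genes tested, many of which encode adaptors of ubiquitin ligases, 133 (39.7%) were called higher and 39 lower, with a median log2 fold change of 0.52, and at least 90 were called higher with any 1 library left out. With either wild-type library left out, 7 were called lower. *bath-31* had 10.6 and 10.4 CPM in *xpc-1* larvae, against 1.75 and 1.16 CPM in wild-type larvae (log2 fold change 2.84 ± 0.25, adjusted p = 8.71e-05). *fbxb-119* had a log2 fold change of 2.25, and *fbxa-69*, in the other direction, had -0.94. Members of this family resemble each other, and reads shared between copies may be lost. Of 8 SR splicing factors, 6 were called higher and none lower. *rsp-4* had 146 and 189 CPM in *xpc-1* larvae, against 74 and 89.4 CPM in wild-type larvae, and *rsp-1* had a log2 fold change of 0.66. With either wild-type library left out, 2 of the 8 were called.

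Among genes with at least 10 CPM on average, the largest rise was that of the chemoreceptor gene *srw-85*. It had 40.9 and 44.2 CPM in *xpc-1* larvae, against 4.20 and 2.49 CPM in wild-type larvae (log2 fold change 3.66 ± 0.22, adjusted p = 2.56e-05). In counts, it had 1714 and 1834 in *xpc-1* and 206 and 112 in wild-type. The *csb-1* libraries, outside the fit, had 1221 and 2918, also above wild-type. The 9 genes after *srw-85* lay between 2.26 and 2.51 on the log2 scale. They were *pes-10*, known for its patterned expression in early embryos, *EEED8.4*, the SKP1-related *skr-10*, the zinc finger gene *lsy-27*, *Y71A12B.11*, *F08F3.6*, *F53F8.3*, *Y73C8C.8* and *Y44A6C.2*. *pes-10* had 23.1 and 26.5 CPM in *xpc-1* larvae, against 4.32 and 4.40 CPM in wild-type larvae. At *pes-10* the *csb-1* libraries differed from each other, with 796 and 0 counts.

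The largest fall by far was that of *F56A4.3*, with 0.429 and 0.289 CPM in *xpc-1* larvae, against 54.1 and 49.6 CPM in wild-type larvae. The next 9 lay between -1.97 and -1.54 on the log2 scale. They were *T02B11.4*, *C15B12.8*, *irg-3*, *clec-1*, *R05H11.2*, *cpt-5*, a carnitine palmitoyltransferase, *asp-8*, *spin-3* and *F55G11.2*. *irg-3*, named for its response to infection, had 46.2 and 57.7 CPM in *xpc-1* larvae, against 166 and 205 CPM in wild-type larvae. At *C15B12.8* the *csb-1* libraries had 98 and 46 counts, against 312 and 288 in *xpc-1* and 1396 and 1112 in wild-type. At *T02B11.4* the *csb-1* libraries differed from each other, with 26 and 1121 counts. After *unc-54*, the largest losses in CPM were those of *asp-1*, the ribosomal proteins *rpl-3* and *rla-0*, and *eef-2*.

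The gene *F56A4.3* (WBGene00018911) lies in a part of chromosome V whose genes were nearly silent in *xpc-1*. There, 21 gene symbols each occur at 2 positions that lie between 107961 and 108279 bases apart, from 2348215 to 2560739 in WBcel235. This region was singled out after its values were seen. Of its 25 genes tested, all had negative log2 fold changes, 19 were called lower and none higher, and the median was -3.23. Most of the 25 met the count minimum through the wild-type libraries alone, so a negative sign was largely set by entry to the test. Copies of a symbol may share reads, so these are not 25 independent genes. By symbol, 9 of the 21 had a copy called lower. In the 500 kb on either side, 47 of 162 genes tested were called lower and 16 higher, with a median of -0.32. The share called lower there was above the 20.2% of chromosome V and the 17.1% of all genes. The share called higher was below the 13.6% of chromosome V and the 20.0% of all genes. Summed over the region, the counts were 233 and 116 in the *xpc-1* libraries, against 4596 and 3967 in the wild-type libraries. The *csb-1* libraries had 157 and 362 counts there, also far below wild-type.

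The size of the difference varied within the region. *C13B7.6*, which was not called, had 30 and 15 counts in *xpc-1*, against 66 and 67 in wild-type at one of its copies, and *mct-2*, which was called, had 23 and 9 in *xpc-1*, against 91 and 67 in wild-type, also at one copy. These 2 genes were chosen after their values were seen, and 6 of the 25 were not called. At the other end, *F56A4.3* had 18 and 12 counts in *xpc-1*, against 2650 and 2233 in wild-type, a ratio of 144, higher in wild-type (95% counting interval 101 to 214, exact binomial on the pooled counts). The *csb-1* libraries had 22 and 8. By the rule of at most 3 counts in each library of a strain and at least 100 in each of the other, 3 genes were off in *xpc-1* and on in wild-type, all of them here, and none the other way round. Of the 3, 2 are the copies of *clec-209*, which had the same counts in both *xpc-1* libraries and may hold the same reads. The gene WBGene00017496, which lies just before the region (2345676 to 2348123), missed this rule in 1 wild-type library: it had no count in *xpc-1*, against 356 and 84 in wild-type, at least 65.1-fold lower in *xpc-1* with a floor of 3 counts per library. The C-type lectin *clec-209* (WBGene00018910, 2459637 to 2460893) had 3 and 1 counts in *xpc-1*, against 231 and 260 in wild-type, and its other copy (WBGene00021224, 2351676 to 2352932) had 3 and 1 in *xpc-1*, against 217 and 215 in wild-type. *irld-35* (WBGene00018917, 2456176 to 2458286) had no count in either *xpc-1* library, against 153 and 183 in wild-type, which is at least 49.7-fold lower in *xpc-1* when 3 counts per library are taken as the floor. The 2 copies of a gene had the same count in every library for 6 of 19 symbols with any count, and differed for the others. How reads shared by both copies were assigned was not tested, so each count is uncertain as to its copy. Intervals and floors cover counting error only, and the interval treats each count as independent. Both mates of a read pair were counted, so it is too narrow even for that error.

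**Figure D4:**
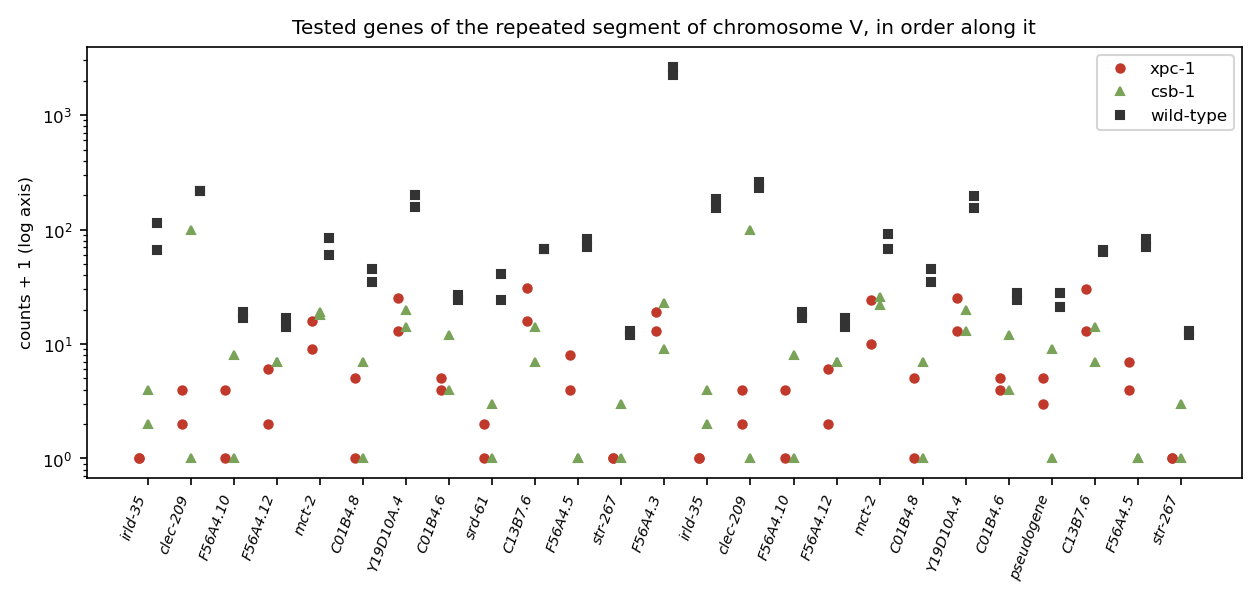
Counts plus 1 (vertical log axis) of the 25 tested genes of the repeated region of chromosome V, in order along it, with *xpc-1* (red circles), *csb-1* (green triangles) and wild-type (black squares) from left to right at each gene. The wild-type libraries lie above both *xpc-1* libraries at every gene, and *F56A4.3* stands highest in wild-type. Most of these genes met the count minimum through the wild-type libraries alone.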

How the data were processed

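Poly(A) RNA-seq of 2 *xpc-1* and 2 wild-type L1 libraries was analysed. After STAR alignment the authors retained proper pairs of mapping quality 30 or above, discarded mitochondrial reads, and ran featureCounts 2.0.4 on exons. The deposited values are raw counts per gene, not normalized. The headers name an Ensembl release 105 annotation of WBcel235, whereas the methods name WS295. Both mates were counted and strand was not used, so counts are not independent molecules, and reads of overlapping or antisense genes cannot be separated. Symbols were found for 44017 of the 46904 genes and gene types, from Ensembl release 115, for 46817.

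Genes were tested with edgeR 4.0.16 (R 4.3.3) by the quasi-likelihood test after TMM scaling, on the 4 libraries, and p-values were adjusted over all 17924 genes. The SE is that implied by the F statistic. The 2 libraries of a strain were not repeats of 1 library (chi-square per degree of freedom 58.4 for *xpc-1* and 34.8 for wild-type). The comparison and the 48 gene lists were chosen with earlier results of these data known, and 8 more lists were added after values were seen. Named genes were *xpc-1* and the excision repair list, the 10 most raised and 10 most lowered called genes with at least 10 CPM and libraries that do not overlap, genes with at most 3 counts in each library of a strain and at least 100 in each of the other, up to 3 called members per direction and list with at least 5 CPM (where none was called, the 2 most abundant), and the 5 largest CPM differences per direction. Not every gene that meets this rule is given in the text. No set test was run, and lists are described by counts and medians. Alternatives were DESeq2 1.42.0, other scaling, filters and thresholds, halved counts, all 6 libraries, the replicate block and leaving out each library. The test was tried on simulated counts. Python 3.11.15, pandas 2.3.3, numpy 2.4.6 and matplotlib 3.10.9 were used.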

Additional observations from a re-analysis of the deposited data

How the results depend on the processing

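Against 6653 calls (3591 higher, 3062 lower), the counts within 1.5 times were 6637 with RLE factors, 6749 with upper-quartile factors, 6576 without scaling factors, 6518 with DESeq2, 7394 with no filter, 6743 with at least 10 counts in all 4 libraries, 6828 with halved counts and 6677 without ribosomal RNA genes, the last chosen after seeing the data. With all 6 libraries in 1 fit edgeR called 0, 0 higher and 0 lower, with 267 genes at an unadjusted p under 0.05. A 2-fold minimum left 1832 (1100 higher, 732 lower) and an adjusted p under 0.01 left 4015 (2337 higher, 1678 lower). With 1 library left out the counts lay between 3058 and 5072, between 1666 and 2824 higher and between 1301 and 2386 lower, with the lone library of a strain assumed to vary like the other strain; the fewest calls came without a wild-type library. Fitting the replicate number as a block gave 8850 calls, with 4689 higher and 4161 lower. The numbers are not stated to mark a batch, there are only 2 pairs, and the replicate differences of the strains had a correlation of 0.142 across genes. Upper-quartile factors moved the median log2 fold change of all genes to -0.10 and the share of calls that were higher to 44.3%, against 54%. All 6653 genes kept their direction in every fit that tested them. Their strain pairs do not overlap, so leaving out 1 library could hardly reverse a sign, and this adds no support. Of the uncalled repair genes named in the text, 4 changed sign with 1 library left out. *xpa-1* ranged from -0.22 to 0.14, *csa-1* from -0.048 to 0.034, *xpf-1* from -0.0045 to 0.20 and *xpg-1* from -0.026 to 0.25. The uncalled repair genes that the text does not name were not examined in this way. Of 155 called genes named in the text, 123 were called with each library left out in turn. The other 32 lost the call at least once, among them *rps-8*, *rps-9*, *rps-14*, *rpl-3*, *act-5*, *act-2*, *unc-119*, *fbf-2*, *cpr-6*, *rpa-2*, *pha-4*, *rsp-1*, *fbxa-69*, *unc-15*, *unc-22*, *cki-1*, *nurf-1*, *eef-2* and *rla-0* beside those named as such above. In the lowest of 4 equal groups of genes by level, 3.10% were called higher and 3.82% lower, against 31.6% and 22% in the highest.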

Other observations

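Several gene families that no list above covers were read after their values had been seen, so their counts describe these libraries and support nothing. All 13 *mex*, *oma* and *meg* genes, *pos-1*, *spn-4* and *pie-1*, which regulate oocytes and the early embryo after transcription, were called higher in *xpc-1*, with a median log2 fold change of 1.95 and summed levels of 673 and 725 CPM in *xpc-1* larvae, against 214 and 236 CPM in wild-type larvae. They were all called higher with any 1 library left out. Of 33 *sdz* genes, named for transcription that depends on SKN-1 in the embryo, 25 were called higher and 3 lower, with a median of 1.84. Their summed level was nonetheless close between the strains, at 505 and 487 CPM in *xpc-1* larvae and 492 and 476 CPM in wild-type larvae. Of 17 T-box factors tested, 10 were called higher and none lower, and of 18 SKP1-related genes 14 were called higher and 1 lower. Homeobox genes of the *ceh* series had 27 of 58 called higher and 4 lower, with 15 called higher without wild-type replicate 1 and 16 without wild-type replicate 2. Linker histone and HMG genes had 15 of 18 called higher and 1 lower, and their summed level was 5297 and 5334 CPM in *xpc-1* larvae, against 3051 and 2992 CPM in wild-type larvae. In the other direction, all 8 *irg* genes, named for their response to infection, were called lower, with log2 fold changes between -1.84 and -0.64 and a summed level of 863 and 877 CPM in *xpc-1* larvae, against 1619 and 1734 CPM in wild-type larvae.

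Chromosomes differed in the balance of calls. On chromosome I, 24.6% of the 2701 genes tested were called higher and 11.7% lower, with a median log2 fold change of 0.10. On chromosome V, 13.6% of 3961 were called higher and 20.2% lower, with a median of -0.19. Shares also differed with length: with genes in 4 equal groups by exon length, 28.9% of the longest and 11.2% of the shortest were called higher, and 19.3% and 13.4% were called lower. Level and length both set how many reads a gene collects, and their part in these shares was not tested.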
